A study of Mus musculus with 2 samples.

Results

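Chemokines are small secreted proteins that attract leukocytes along a gradient. They are named by the spacing of cysteines near their start (CC, CXC, CX3C and C families), and they act through receptors coupled to inhibitory G proteins, while the atypical receptors bind chemokines without signalling through G proteins and remove or carry them. In the dorsal root ganglion (DRG), the cluster of sensory neuron cell bodies beside the spinal cord, chemokines are best known for the changes in neuronal excitability and the leukocyte entry that follow nerve injury.

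The chemokine and chemokine receptor genes were taken by symbol, as every gene whose name begins with Ccl, Cxcl, Cx3cl, Xcl, Ccr, Cxcr, Cx3cr, Xcr or Ackr followed by a number and at most 1 letter. This gave 61 of the 24411 genes in the files, of which 39 encode ligands and 22 encode receptors, and 90 of the 35034 transcript rows. The rule uses the symbol alone and keeps every match, whatever its value.

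The 2 libraries came from DRG neuron preparations of male C57BL/6 mice (C57BL/6J in the study's methods) aged 6 to 8 weeks. The alum library was labelled both as naïve and as alum alone, and the study's methods describe its mice as injected intraperitoneally with 50% alum, a mineral adjuvant. The alum + KLH library came from mice given the same adjuvant together with keyhole limpet hemocyanin, a large foreign protein used as a model antigen. Injections were on day 0 and day 14, and ganglia were harvested 14 days later, so both groups carried the adjuvant and differed in the antigen. Each library was a pool of 10 mice, which leaves 1 library per group with no replicate, so no value below has an error and no difference was tested. Thoracic and lumbar ganglia were dissociated with collagenase and dispase, spun through albumin and depleted of B lymphocytes on beads, and neurons were therefore enriched but not sorted. Values are TPM, transcript abundances corrected for transcript length and scaled to a fixed total per library, so that levels of different genes can be set side by side. A gene was called detected above 3 TPM.

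The labelled tissue was checked against marker lists. All 8 neuron markers and all 5 satellite glia markers were above 3 TPM in both libraries. Neuron markers summed to 14293 TPM in alum and 14170 TPM in alum + KLH, and satellite glia markers to 1724 and 1600 TPM. The 6 Schwann cell markers summed to 1862 and 1830 TPM, led by Pmp22 at 1062 and 1021 TPM. Of these 6, 4 were above 3 TPM in both libraries, while Prx and Sox10 were not. The 12 macrophage markers summed to 10.4 and 10.2 TPM, with Lyz2 alone above 3 TPM at 3.90 and 3.86 TPM. The 6 T cell markers summed to 5.18 and 4.98 TPM, of which Cd3d held 2.97 and 3.13 TPM and Lck 1.34 and 1.34 TPM, while Cd3g was at 0 in both. The 6 fibroblast markers summed to 88.1 and 88.4 TPM, led by Dcn. All 15 genes used by every cell were detected, with a lowest value of 22.5 TPM.

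Chemokine transcripts were concentrated in a few genes. Of the 61 genes, 17 were above 3 TPM in alum and 15 in alum + KLH, or 27.9% and 24.6%, while 46.9% and 46.3% of all genes passed the same threshold. The ligand genes summed to 712 TPM in alum and 784 TPM in alum + KLH. Cxcl10, Ccl2 and Ccl7 held 85.3% and 88.1% of those sums, and the median ligand gene was at 1.15 and 0.703 TPM. The receptor genes summed to 152 and 136 TPM, of which Ackr1 held 80.5% and 79.7%.

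**Figure D1:**
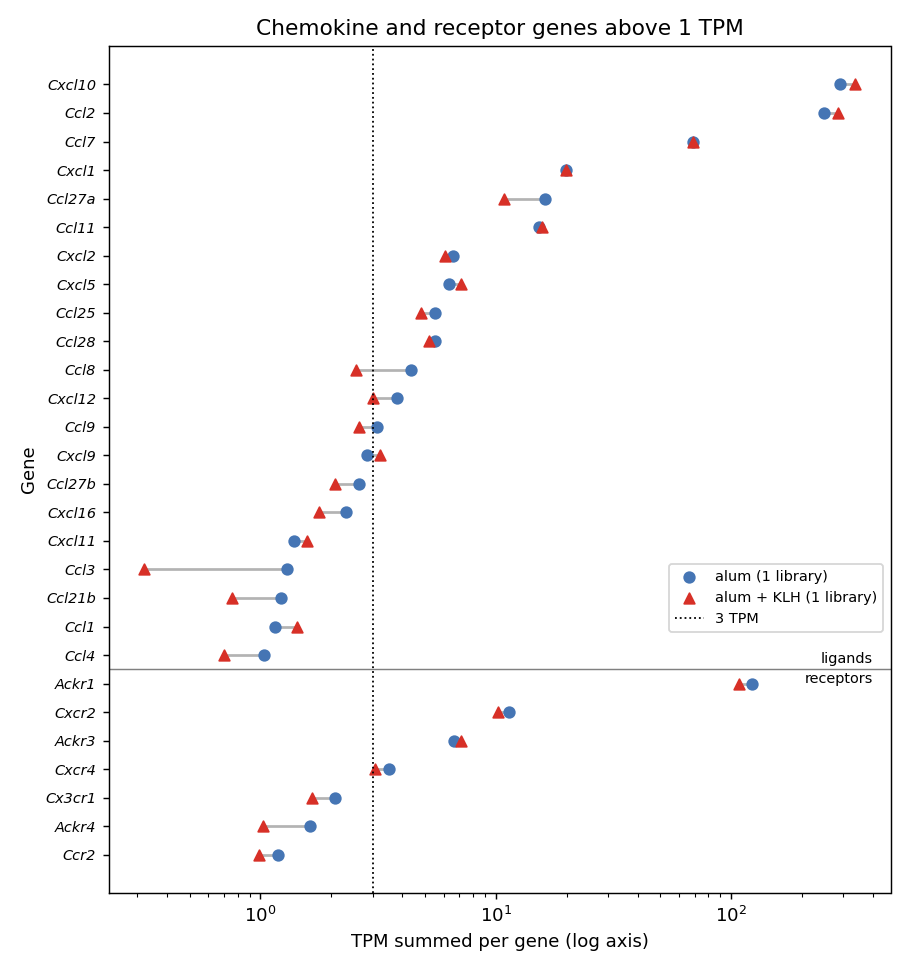
Levels of the 28 genes above 1 TPM in at least 1 library, on a log axis in TPM, with ligands above and receptors below the horizontal line; circles are the alum library, triangles the alum + KLH library and the dotted line marks 3 TPM. Cxcl10 and Ccl2 lie between 247 and 336 TPM, far to the right of most other ligands, and Ackr1 at 122 and 108 TPM lies far to the right of the other receptors.

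The interferon-induced CXC ligands Cxcl9, Cxcl10 and Cxcl11 attract activated T cells and NK cells and lie next to each other on chromosome 5. Cxcl10 (NM_021274, chr5:92346638-92348889, minus strand) was the most abundant of the 61 genes, at 291 TPM in alum and 336 TPM in alum + KLH. It ranked 698 among all genes in alum, with 2.86% of genes higher, and 592 in alum + KLH, with 2.42% higher. Cxcl9 was at 2.83 and 3.23 TPM and Cxcl11 at 1.38 and 1.58 TPM. Cxcl10 was thus 103 and 104 times as abundant as Cxcl9 in the 2 libraries. All 3 values were higher in alum + KLH, and Cxcl9 alone moved across the 3 TPM threshold. Cxcl10 overlaps Art3, a gene of the opposite strand at 35.6 and 37.2 TPM, over 133 of 1094 exon bases. Whether reads were assigned by strand is not given in the sources used here.

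The 250 bases before the start sites of 4 CXC ligand genes are shown because the genes lie in the same chromosomal neighbourhoods at very different levels. They are RefSeq sequences of build GRCm38.p6, read 5′ to 3′ on the strand of the gene. Capitals mark letters that match the core of the interferon-stimulated response element (ISRE, searched as GAAA, any 2 bases and GAAA) or the NF-kB consensus, each searched on both strands.
Cxcl10, chr5:92348890-92349139, minus strand: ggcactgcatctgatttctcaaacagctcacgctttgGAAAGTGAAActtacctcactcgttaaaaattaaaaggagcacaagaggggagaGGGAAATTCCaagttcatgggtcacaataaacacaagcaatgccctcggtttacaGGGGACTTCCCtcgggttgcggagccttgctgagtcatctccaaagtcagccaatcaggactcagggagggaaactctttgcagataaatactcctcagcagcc
Cxcl9, chr5:92328080-92328329, minus strand: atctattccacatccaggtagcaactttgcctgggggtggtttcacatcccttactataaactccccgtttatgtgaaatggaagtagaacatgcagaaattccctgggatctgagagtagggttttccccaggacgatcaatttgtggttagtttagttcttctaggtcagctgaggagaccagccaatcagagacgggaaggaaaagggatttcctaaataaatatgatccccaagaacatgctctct
Cxcl1, chr5:90890995-90891244, plus strand: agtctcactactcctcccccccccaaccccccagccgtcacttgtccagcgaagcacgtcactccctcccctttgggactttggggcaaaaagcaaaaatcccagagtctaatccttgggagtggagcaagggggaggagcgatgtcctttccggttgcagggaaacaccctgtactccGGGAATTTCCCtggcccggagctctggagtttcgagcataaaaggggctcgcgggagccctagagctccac
Cxcl2, chr5:90903649-90903898, plus strand: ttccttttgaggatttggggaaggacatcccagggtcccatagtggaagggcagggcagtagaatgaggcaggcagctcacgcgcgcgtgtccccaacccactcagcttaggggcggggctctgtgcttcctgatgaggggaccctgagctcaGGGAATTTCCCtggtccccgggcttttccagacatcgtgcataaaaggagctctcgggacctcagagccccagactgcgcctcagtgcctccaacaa
The Cxcl10 window held 1 ISRE core, beginning at base -213 from the start site, and NF-kB matches beginning at -159, -104 and -103, of which the last pair overlap. The Cxcl9 window held neither motif. Cxcl1 and Cxcl2 carried the same run of capital letters, a pair of overlapping NF-kB matches, beginning at -71 and -97. An ISRE core was present in 2.98% and an NF-kB match in 7.25% of 32851 promoter windows of this length. Among the 14 chemokine and receptor genes above 3 TPM with a promoter entry, 1 held the ISRE core and 4 the NF-kB consensus (Ccl9, Cxcl1, Cxcl10 and Cxcl2). Among 31 other members with an entry, the counts were 2 and 7. A match of letters describes the window and was not read as a binding site.

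The inflammatory CC ligands attract monocytes, eosinophils and T cells, and 3 of the 12 were above 3 TPM in both libraries. Ccl2, the principal monocyte attractant (NM_011333, chr11:82035577-82037452), was at 247 TPM in alum and 286 TPM in alum + KLH. Ccl7, which also attracts monocytes through Ccr2, was at 68.8 and 68.7 TPM. Ccl11, the eosinophil attractant eotaxin, was at 15.3 and 15.7 TPM. These are neighbours in that order on chromosome 11, and the level dropped along them in both libraries, Ccl2 being 3.59 and 4.15 times Ccl7, and Ccl7 being 4.50 and 4.39 times Ccl11. The next gene, Ccl12, another ligand of Ccr2, was at 0.151 and 0.529 TPM. Ccl8 was at 4.36 and 2.54 TPM, and Ccl1 at 1.15 and 1.44 TPM. The 6 genes within chr11:82035577-82179812 thus spanned from under 1 TPM to the second most abundant ligand.

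Ccl9, Ccl3, Ccl4 and Ccl5 lie in a separate cluster on the same chromosome and were low. Ccl9, a myeloid cell attractant, was at 3.14 TPM in alum and 2.63 TPM in alum + KLH. Ccl3 was at 1.30 and 0.321 TPM and Ccl4 at 1.04 and 0.703 TPM, both being macrophage inflammatory proteins made mainly by leukocytes. Ccl5 was at 0.460 and 0.402 TPM. All of these except Ccl9 in alum stayed below the detection threshold, in preparations where 1 of the 12 macrophage markers, Lyz2, passed it. The 12 markers summed to 10.4 TPM in alum and 10.2 TPM in alum + KLH, and single markers differed in both directions. Cd68 was at 0.983 and 1.63 TPM, for example, and Aif1 at 1.15 and 0.496 TPM. The part of such cells in the ligand values was not tested. In bulk RNA, fewer cells of a type and less RNA per cell cannot be told apart.

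**Figure D2:**
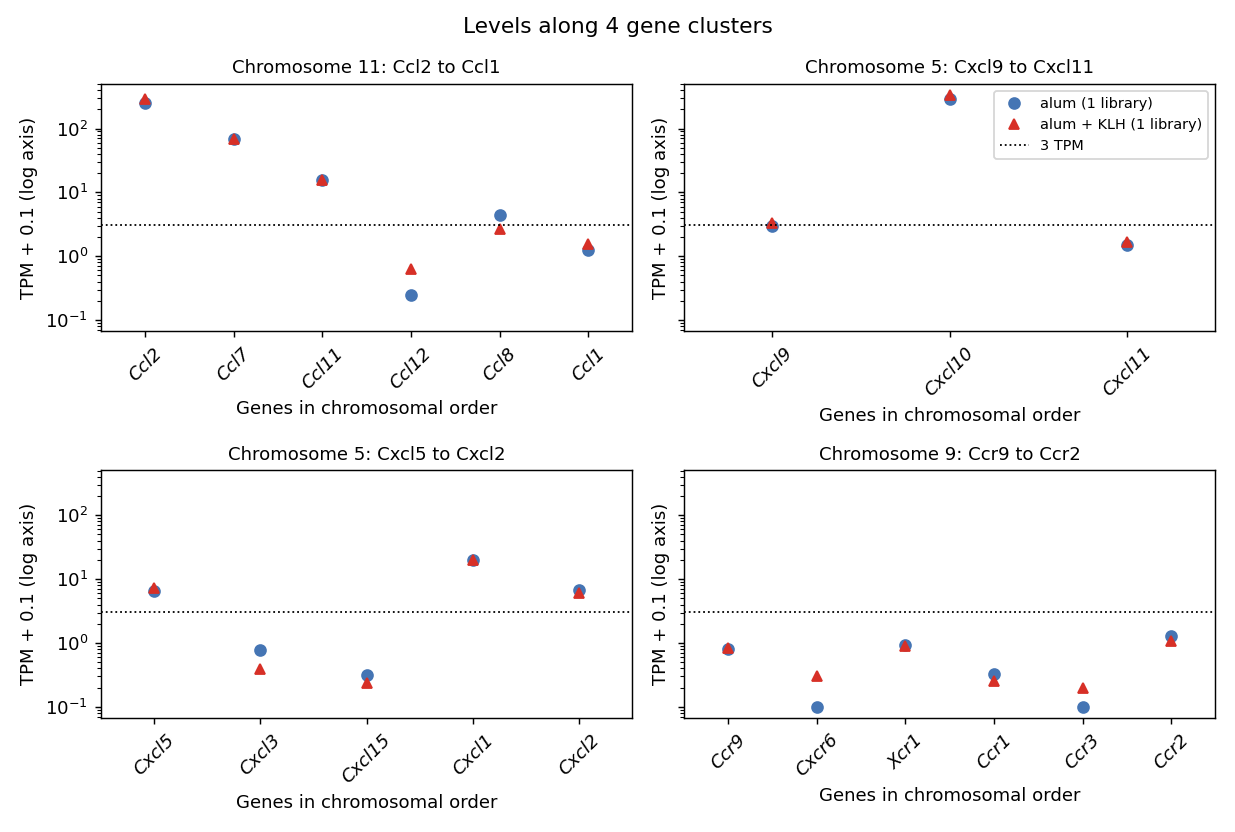
Levels along 4 clusters of neighbouring genes in chromosomal order, as TPM + 0.1 on a log axis, with circles for alum, triangles for alum + KLH and a dotted line at 3 TPM. In both libraries the values descend from Ccl2 at 247 and 286 TPM through Ccl7 and Ccl11, Cxcl10 stands far above both neighbours, and the receptor genes shown from the chromosome 9 cluster all lie below the line.

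The neutrophil-attracting CXC ligands signal through Cxcr2, and 3 of the 5 were detected in both libraries. Cxcl1 (NM_008176) was at 20.0 TPM in alum and 19.9 TPM in alum + KLH. Cxcl2 was at 6.58 and 6.07 TPM, and Cxcl5 at 6.33 and 7.11 TPM. Cxcl3 was at 0.686 and 0.296 TPM and Cxcl15 at 0.217 and 0.135 TPM. The group sum was 33.8 and 33.5 TPM, so nearly the same amount was present in both pools. Within the promoter sequences above, Cxcl1 and Cxcl2 carried the same NF-kB letters, and Cxcl1 was 3.03 and 3.28 times as abundant as Cxcl2.

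Among the 12 CC ligands of lymphoid organs, skin and mucosa, Ccl27a, Ccl25 and Ccl28 were above 3 TPM in both libraries. Ccl27a, known as a skin chemokine that attracts T cells through Ccr10, was at 16.2 TPM in alum and 10.8 TPM in alum + KLH. Ccl28, a mucosal ligand of the same receptor, was at 5.51 and 5.21 TPM. Ccl25, which guides T cells to the gut and thymus, was at 5.53 and 4.82 TPM. All 3 were lower in alum + KLH. Among the lymph node chemokines, Ccl19 was at 0.207 and 0.180 TPM, and Ccl17, Ccl21a and Ccl21c were listed at 0 in both libraries. Ccl21b was at 1.22 and 0.754 TPM, close to the median ligand gene. Shared sequence was not measured for the genes listed at 0, so how reads were divided among the Ccl21 genes was not tested.

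Ccl27a and Ccl27b are near copies, which makes their values uncertain. Of the 31-base words of the deposited Ccl27a transcripts, between 75.2% and 88.8% also occur in transcripts of other genes. The Ccl27b rows NM_001199960 and NM_001199961 were matched to transcripts at the Ccl27a position. Their sharing with Ccl27a was therefore fixed in advance and does not describe Ccl27b. The Ccl27b row NM_001199959, listed at 0 TPM in both libraries, was matched at chr4:42655251-42656005. All of its words occur in other genes, and 98.2% occur in the copy Gm13306. Ccl27b was at 2.62 and 2.08 TPM, and Ccl27a and Ccl27b together came to 18.8 and 12.9 TPM. That sum was also lower in alum + KLH, with a log2 ratio of -0.51, but it leaves out other copies. Gm13306 was at 2.62 and 2.08 TPM, the same values as Ccl27b, and Gm20878 was at 0.251 and 0 TPM. Ccl21b at 1.22 and 0.754 TPM shares all its words with a copy, Gm10591.

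The other 7 ligands include the homeostatic and membrane-anchored chemokines, and Cxcl12 alone passed 3 TPM, in alum. Cxcl12, the ligand that retains stem cells and guides migrating neurons, was at 3.81 TPM in alum and 2.99 TPM in alum + KLH, just under the threshold in the latter. Cxcl16 was at 2.30 and 1.77 TPM. Cx3cl1 (fractalkine), a membrane-anchored chemokine associated with neurons, was at 0.705 and 0.639 TPM. Both membrane-anchored ligands were thus below detection in both pools. Their shedding proteases were not, with Adam10 at 94.1 and 96.1 TPM and Adam17 at 21.0 and 21.1 TPM.

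Of the 22 receptor genes, 4 were above 3 TPM in both libraries and the remaining 18 in neither. Ackr1 (NM_010045, chr1:173331886-173333503), the Duffy antigen receptor of red cells and venular endothelium that binds many CC and CXC chemokines, was at 122 TPM in alum and 108 TPM in alum + KLH. Below Cxcl10 and Ccl2 it was the most abundant of the 61 genes, and it was 10.7 and 10.6 times as abundant as the next receptor. Ackr1 shares 113 of its 1153 exon bases with Cadm3, a neural adhesion gene on the same strand at 209 and 200 TPM, and 7.66% of its 31-base words occur in Cadm3 transcripts. Reads from the shared stretch cannot be told apart. The 7 endothelial markers summed to 18.0 and 13.5 TPM, with Emcn at 5.17 and 4.46 TPM and Cdh5 at 3.79 and 3.15 TPM above the threshold in both and Cldn5 lowest at 0.142 and 0 TPM. The 5 red cell markers summed to 5.35 and 1.95 TPM, led by Hba-a1 at 4.15 and 1.62 TPM. Both marker sums were lower in alum + KLH, as Ackr1 was, and their part in the Ackr1 value was not tested.

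Ackr3 and Cxcr4 are the scavenging and the signalling receptor of Cxcl12. Ackr3 was at 6.66 TPM in alum and 7.14 TPM in alum + KLH, and Cxcr4 at 3.50 and 3.07 TPM. Both were detected in both pools. Ackr4, which scavenges lymphoid chemokines, was at 1.63 and 1.03 TPM, and Ackr2, which scavenges inflammatory CC chemokines, at 0.168 and 0.113 TPM. Ackr4 overlaps Acad11, a gene of the opposite strand at 24.2 and 25.5 TPM, over 352 of 2389 exon bases.

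Cxcr2, the neutrophil receptor for Cxcl1, Cxcl2 and Cxcl5, was at 11.4 TPM in alum and 10.2 TPM in alum + KLH. The 5 neutrophil markers in the files summed to 47.0 and 7.78 TPM, led by S100a8 at 32.3 and 4.59 TPM, while Elane was at 0 in both and Csf3r was at 2.88 and 2.21 TPM. S100a9 was at 11.7 and 0.962 TPM and Mpo at 0.10 and 0.0216 TPM. The log2 ratios, explained with the comparison of the pools, were -2.58 for S100a8, -2.69 for S100a9, -0.27 for Csf3r, -0.11 for Mpo and -0.14 for Cxcr2, so the wide gap lay in S100a8 and S100a9. The part of these markers in the Cxcr2 value was not tested. In the Cxcr2 transcript, 12.2% of the 31-base words occur in other genes, no single gene holding more than 3.35%. Cxcr1, the neighbouring gene, was at 0.0613 and 0.106 TPM.

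None of the 10 CC receptors was above 3 TPM, and together they summed to 3.25 TPM in alum and 3.06 TPM in alum + KLH. Ccr2, the monocyte receptor for Ccl2 and Ccl7, was the highest at 1.18 and 0.986 TPM. Ccr1 was at 0.225 and 0.154 TPM and Ccr7, the lymph node homing receptor, at 0.102 and 0.0848 TPM. Cx3cr1, the fractalkine receptor of macrophages, was at 2.08 and 1.66 TPM. The receptors listed at 0 in both libraries were Ccr6, Ccr8 and Cxcr3. In all, 6 of 61 members, or 9.84%, were listed at 0 in both, compared with 19.7% of all genes. Another 27 members were at or below 1 TPM in both libraries without being 0 in both, the highest being Xcr1, a dendritic cell receptor, at 0.842 and 0.801 TPM. A value of 0 TPM means that no reads were assigned at this depth and does not show that the transcript was absent.

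Ligands and receptors were then paired. Of 46 textbook pairs, 4 had both partners above 3 TPM in both libraries, namely Cxcl1, Cxcl2 and Cxcl5 with Cxcr2, and Ccl2 with Ackr1. A partner counted as passing only if it was above 3 TPM in both libraries. On that rule the ligand alone passed in 11 pairs, the receptor alone in 4, and neither in 27. Ccl8, Ccl9, Cxcl9 and Cxcl12, each above 3 TPM in 1 library only, were thus counted as not passing. In the alum library alone, Cxcl12 at 3.81 TPM was above the threshold together with Cxcr4 and Ackr3. The most abundant ligand had its signalling receptor at 0, since Cxcr3, the receptor of Cxcl10, was listed at 0 in both pools. The ligand Ccl2 was 209 and 290 times as abundant as Ccr2. Ccl11 stood at 15.3 and 15.7 TPM against 0 and 0.0993 TPM for Ccr3, and Ccl27a and Ccl28 stood against Ccr10 at 0.419 and 0.295 TPM. The pairs share partners and are not independent of each other. Ackr1, which binds many CC and CXC chemokines, was paired with Ccl2 alone. The counts therefore describe this list and not every known pair.

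The signalling parts that chemokine receptors share with many other receptors were abundant. All 6 Gi and G beta gamma genes were above 3 TPM, with Gnai1 at 259 TPM in alum and 300 TPM in alum + KLH and Gnb1 at 954 and 1054 TPM. All 6 receptor kinase and arrestin genes in the files were detected, led by Arrb1 at 76.9 and 71.4 TPM. Of 11 downstream effectors 7 were detected, among them Cdc42 at 1389 and 1432 TPM, a small GTPase of cell polarity. The 4 effectors below 3 TPM were Plcb2, Pik3cg, Vav1 and Dock2, which are known mainly from blood cells, while Rac2, also a blood cell gene, was at 9.45 and 7.39 TPM. Of the 7 relatives outside the symbol rule, 2 passed, namely the orphan receptor Gpr75 at 8.21 and 8.67 TPM and the chemerin gene Rarres2 at 5.39 and 4.72 TPM.

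Ccl27a, Ccl25, Cxcl12 and Ackr3 were the genes above 3 TPM that had several transcript rows. For Ccl27a, NM_011336 was at 10.1 TPM in alum and 4.72 TPM in alum + KLH, while NM_001164045 was at 4.95 and 4.51 TPM. NM_001048179 was at 1.11 and 1.63 TPM and NM_001164044 was listed at 0. As divided among the rows, the lower Ccl27a value in alum + KLH lay mainly in NM_011336, the row for chr4:41769478-41770212. Its share of the gene went from 62.5% to 43.5%. That row lies within the span of NM_001048179, so the division of reads among rows is an estimate. Words shared between rows of the same gene were not measured. For Ccl25, the noncoding transcript NR_033527 held 4.23 and 4.21 TPM, or 76.5% and 87.4%, and the coding NM_009138 held 1.30 and 0.604 TPM. Most Ccl25 signal was thus on a transcript not annotated as coding, and 79 of 1274 Ccl25 exon bases overlap Elavl1, a gene of the opposite strand at 31.5 and 34.1 TPM. For Cxcl12, NM_021704 was at 1.84 and 1.52 TPM, NM_001012477 at 1.36 and 1.47 TPM, and NM_013655 at 0.617 TPM in alum and practically 0 in alum + KLH. For Ackr3, NM_007722 held 93.8% and 97.5%.

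**Figure D3:**
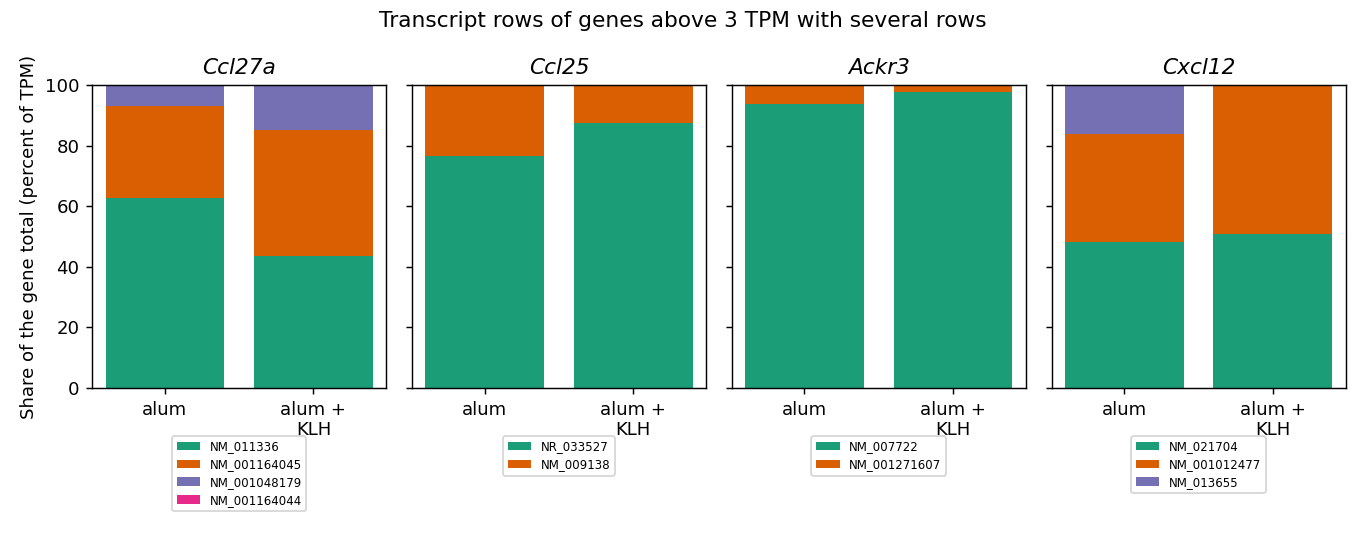
Share of each gene's TPM on each deposited RefSeq transcript row, in percent, for Ccl27a, Ccl25, Ackr3 and Cxcl12, with the alum library on the left and the alum + KLH library on the right of each panel. NM_011336 took 62.5% of Ccl27a in alum and 43.5% in alum + KLH, and NR_033527 took 76.5% and 87.4% of Ccl25.

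The question of whether the antigen went with a different chemokine level was then addressed gene by gene. Differences are given as the log2 ratio of TPM + 1 in alum + KLH over TPM + 1 in alum. Among the 18 genes above 3 TPM in at least 1 library, 0 were 2-fold higher and 0 were 2-fold lower, compared with 0.695% and 0.944% of all 11648 such genes, or 1.64% in either direction. At these rates a list of 18 genes would hold few or none. The 18 ratios ran from -0.60 to 0.21 with a median of -0.09, and the median of all genes was -0.02. In 6 genes the value was higher in alum + KLH and in 12 it was lower, and 56.4% of all genes were lower. Among the 43 genes at or below 3 TPM in both libraries, 0 were 2-fold apart on this scale, which understates differences at low levels.

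In the absence of replicates, each ratio was set beside its spread over the 500 genes closest in level in the same libraries, here called the neighbour SD, which describes genes and not mice. The ratio exceeded the neighbour SD in 5 of the 18 genes, or 27.8%, compared with 17.1% of all genes. These were Cxcl10, Ccl2, Ackr1, Ccl27a and Ccl8. Cxcl10 had a ratio of 0.20 with a neighbour SD of 0.19, and 7.2% of its neighbours were as far from 0. Ccl2 had a ratio of 0.21 with a neighbour SD of 0.19, and 7.4% of its neighbours were as far. Both leading ligands were therefore slightly higher in alum + KLH, at the edge of the spread of genes of like level. Some genes used by every cell differed by more, among them Gapdh at -0.40 and Actb at -0.33, while Hprt was at 0.08. Relative to Hprt, the ratios of Cxcl10 and Ccl2 were 0.12 and 0.12, and after rescaling by the median ratio they were 0.22 and 0.22. The scaling thus changed their distance from 0. It shifts the ratios of genes of like level by about the same amount, and the neighbour ratios were not rescaled. These values therefore do not show a changed place among the neighbours.

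Ackr1 had a ratio of -0.17 with a neighbour SD of 0.12. Ccl8, a ligand of Ccr8, had a ratio of -0.60 with a neighbour SD of 0.52. Ccl27a had a ratio of -0.54 with a neighbour SD of 0.21, and 1% of its neighbours were as far, so it stood furthest from genes of its own level among the 18. Taken by its highest row alone the ratio was -0.96, and the copies described above share most of its sequence. Among genes under 3 TPM, ratios beyond the neighbour SD went in both directions. Ccl3 had a ratio of -0.80 with a neighbour SD of 0.28, and Cxcl3, Ccl24 and Xcl1 were also lower in alum + KLH. Ccl26 had a ratio of 0.45 with a neighbour SD of 0.17, and Ccl12, Cxcl14, Cxcr6 and Ccr3 were also higher. All of these genes were at or below 1.30 TPM in both libraries.

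**Figure D4:**
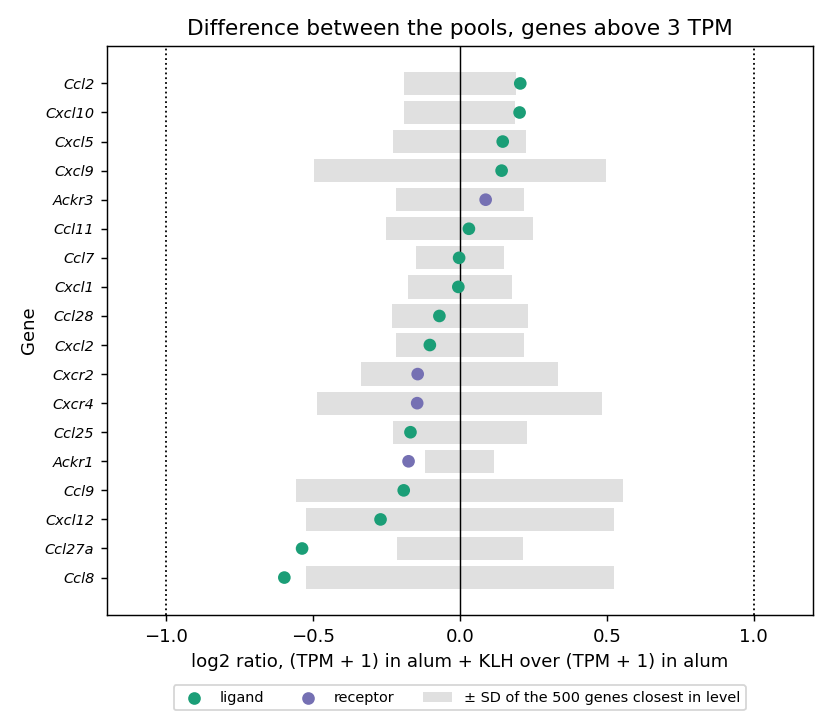
Log2 ratio of TPM + 1 in alum + KLH over alum for the 18 genes above 3 TPM in at least 1 library (points, ligands green and receptors purple), with grey bars for ± 1 SD of the ratio over the 500 genes closest in level and dotted lines at 2-fold. All points lie between the dotted lines, and 5 lie outside their grey bar.

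The other 13 genes had ratios inside the neighbour SD. Ccl7 and Cxcl1 had ratios of -0.0021 and -0.0048, with neighbour SDs of 0.15 and 0.18, and were the closest to equal. Ccl11 was at 0.03 with a neighbour SD of 0.25, Ackr3 at 0.09 with 0.22 and Cxcl5 at 0.15 with 0.23. Cxcl9 was at 0.14 with a neighbour SD of 0.50. Among the genes read higher in alum, Cxcl2 was at -0.10 with a neighbour SD of 0.22 and Ccl28 at -0.07 with 0.23. Cxcr2 was at -0.14 with a neighbour SD of 0.33, Cxcr4 at -0.14 with 0.48 and Ccl25 at -0.17 with 0.23. Without its noncoding row Ccl25 was at -0.53. Ccl9 was at -0.19 with a neighbour SD of 0.56 and Cxcl12 at -0.27 with 0.52. For these genes no difference between the pools could be told from the spread of other genes.

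**Figure D5:**
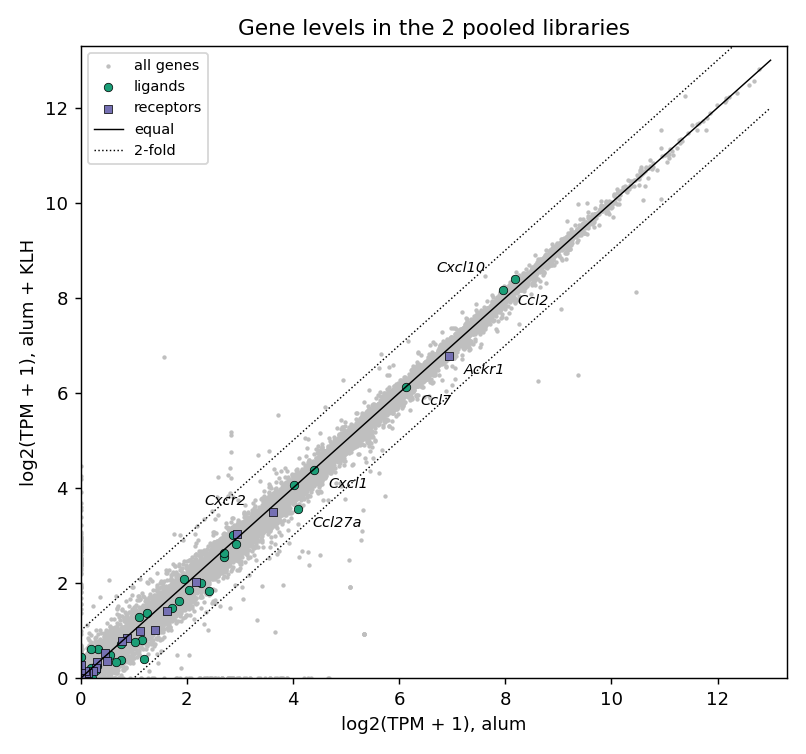
Log2 of TPM + 1 in alum (horizontal) and alum + KLH (vertical) for all 24411 genes (grey) with ligand genes as green circles and receptor genes as purple squares, a solid line for equality and dotted lines for 2-fold. The chemokine and receptor genes follow the band of all genes, with most near the origin and Cxcl10, Ccl2, Ackr1 and Ccl7 at the upper right.

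Outside the symbol rule, 38 pathway genes were in the files and 25 of them were above 3 TPM in at least 1 library. Of these 25, 0 were 2-fold higher and 1 was 2-fold lower in alum + KLH, or 4%, beside 0.695% and 0.944% of all genes above 3 TPM. This was Mif, a cytokine that also binds Cxcr2 and Cxcr4 and is sensed through Cd74, at 7.24 TPM in alum and 2.78 TPM in alum + KLH with a log2 ratio of -1.12. Its partner Cd74 was at 0.971 and 0.768 TPM. Gnb2 followed at 8.86 and 4.59 TPM and Gnai2 at 43.3 and 30.1 TPM, with ratios of -0.82 and -0.51. Hmgb1, which acts on Cxcr4 together with Cxcl12, was at 347 and 359 TPM.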

How the data were processed

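Poly(A) RNA of DRG neuron preparations was sequenced from 2 libraries, alum and alum + KLH, each pooled from 10 mice. The authors prepared stranded libraries, sequenced 75-base paired ends, trimmed reads with cutadapt, quantified them with kallisto against mm10 transcripts and deposited TPM for each RefSeq transcript. Per the submitters' processing notes, bcl2fastq was also used, and versions and the strand setting are not given in the sources used here. TPM sums to the same total in each library and holds no read counts, so no interval or floor was computed.

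The deposited TPM values were summed per gene symbol (Python 3.11.15, pandas 2.3.3, numpy 2.4.6). Genes above 3 TPM, the threshold of the study's methods, were called detected. Ratios used a pseudocount of 1 TPM, were called at 2-fold and were set beside the SD over the 500 genes closest in mean level. With 1 library per group, no test was made. The script was tested on simulated data. Members, gene lists and pairs were chosen with earlier results of these data known. Members above 3 TPM were described in full, those from 1 to 3 TPM by value, and the rest by count or as partners in a group or pair. Single values of some genes are not reported here. Neighbouring genes lay within 200000 bases of each other. Gene positions and promoter sequences came from RefSeq tables of GRCm38.p6, where 45 of the 61 genes had a promoter entry. Transcript sequences and exons came from GENCODE M21 (GRCm38), which matched 89 of 90 rows. The counts above 3 TPM, the count 2-fold apart, the median ratio and the ratios of genes above 3 TPM were recomputed. Each was run under some or all of the following settings. These were 1 or 10 TPM or none as threshold, and 0.1 or 0.5 TPM as pseudocount. Others were the highest row per gene, noncoding rows left out, and rescaling by the median ratio or by Hprt. Repeated accessions counted once was added after the data were seen. Single-gene ratios were not run under that setting or the threshold settings. Pair counts, sums, transcript shares and neighbour SD counts were not recomputed.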

Additional observations from a re-analysis of the deposited data

How the results depend on the processing

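The count of detected genes depended on the threshold. Above 1 TPM, 28 genes passed in alum and 24 in alum + KLH, and above 10 TPM the counts were 8 and 8. With the highest transcript row per gene or without noncoding rows, 16 passed in alum, and with median-ratio scaling 16 passed in alum + KLH. The count of genes 2-fold apart was 0 under every alternative run, and the median ratio ranged from -0.157 relative to Hprt to -0.0035 for genes above 10 TPM. Of 108 single-gene values over 18 genes, 106 moved by less than the neighbour SD. The exceptions were Ccl25 without noncoding rows at -0.53 and Ccl27a by its highest row at -0.96. Sign changes occurred in 4 values, Ccl11 relative to Hprt at -0.05, Ccl7 with median-ratio scaling at 0.016 and without noncoding rows at 0.0004, and Cxcl1 with median-ratio scaling at 0.013. No paired analysis was possible because each group is 1 library, and for the same reason no replicate could be left out. TPM files hold no read counts, so no counting limit was computed for low values.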

Other observations

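Of the 7 relatives of the chemokine system outside the symbol rule, the platelet chemokines Pf4 and Ppbp were at 0.134 and 0.449 TPM in alum and at 0.467 and 0.277 TPM in alum + KLH. Ccrl2, which binds chemerin without signalling, was at 1.75 TPM in alum and 1.34 TPM in alum + KLH. The chemerin receptor Cmklr1 was at 0.0995 and 0.215 TPM.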
